A study of Mus musculus with 4 samples.

Results

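Ada, Pnp, Xdh, Gda, Nt5e and Adk, enzymes of purine breakdown and of adenosine handling, were followed in RNA from the ileum of male C57BL/6J mice aged 10 weeks. They were chosen by symbol, through the RefSeq accession of each array probe, when the array values of these samples were already known, so their levels and their differences between groups are descriptions and carry no test. The 6 genes had 9 probes among the 39429 probes of the array, and each of the 6 was among the 21649 genes and transcripts that passed the filter on dim probes. There were 2 samples from mice given metformin by mouth at 1000 mg/kg, called metformin 1 and metformin 2, and 2 control samples, control 1 and control 2, for which the labels give no vehicle. Metformin is a glucose-lowering biguanide, and the ileum is the last stretch of the small intestine. The length of treatment is not given in the sources used here, and whether both samples of a group were taken from different mice is not given either, so their spread may be partly technical. Each sample had 1 array, and all 4 lay on 1 slide read in 1 scan, with the controls at positions 1 and 2 and the metformin samples at positions 3 and 4, so position and treatment cannot be told apart.

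Purine breakdown turns nucleotides into nucleosides, bases and finally urate. Outside the cell, ectoenzymes strip phosphates from ATP to AMP, and Nt5e (CD73), anchored on the cell surface, removes the last one to give adenosine, which signals through adenosine receptors. Nucleoside transporters carry adenosine into the cell, where Adk returns it to AMP or Ada deaminates it to inosine. Pnp splits inosine and guanosine into sugar phosphate and base, Gda deaminates guanine to xanthine, and Xdh oxidises hypoxanthine and xanthine to urate. In mice Ada is made at very high level in the epithelium of the upper gut, and Nt5e, Ada and the transporter gene Slc28a2 are known as genes of enterocytes at the villus tip.

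Every value is the log2 of the signal over the 75th percentile of its array, so 0 is the signal that 75% of probes stay below. The arrays were of like quality, with 69.3% and 69.9% of spots well above background in metformin 1 and metformin 2, against 66.2% and 69.7% in control 1 and control 2, and no spot was saturated. The arrays did not sort by treatment. The first principal component, with 61.3% of the variance, put metformin 1 at -75.0 and metformin 2 at 55.6, against -40.6 for control 1 and 60.0 for control 2. Summed markers of gut region set 1 sample apart from the others of the shared ileal label. Fabp6, which binds bile acids in ileal enterocytes, read 4.16 in metformin 1 and 8.69 in metformin 2, against 8.94 and 8.29 in control 1 and control 2. All 8 ileal markers were well above background on all 4 arrays, and their summed level was 204 and 644 times the 75th percentile signal in metformin 1 and metformin 2, against 715 and 464 in control 1 and control 2. Markers of the proximal small intestine (10 of 11 measured, Pdx1 not) summed to 1090 and 160 in metformin 1 and metformin 2, against 301 and 180 in control 1 and control 2. Metformin 1 had the highest proximal and the lowest ileal sum of the 4. Most of the ileal sum in metformin 2, control 1 and control 2 was Fabp6. The low ileal sum of metformin 1 therefore rested largely on that gene and is not separate from its values above. Taken singly, 8 of the 10 proximal markers were highest in metformin 1 and Slc40a1 and Cybrd1 were lowest there, and 4 of the 8 ileal markers were lowest in metformin 1 and Amn and Cubn highest. The differences of the 6 genes, and those of named list genes on arrays well above background whose groups did not overlap or whose sign changed, are also given without it.

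Ada and Nt5e had wider ranges over the 4 arrays than nearly all other genes. Ada read 7.59 in metformin 1 and -0.58 in metformin 2, against 6.50 in control 1 and -0.91 in control 2. The sample numbered 1 was high and the sample numbered 2 low in both groups, so the groups overlapped across the whole range. The processed spot signal of Ada was 166900 and 717.3 in metformin 1 and metformin 2, against 82910 and 775 in control 1 and control 2, and the scanner software gave each of these an error of 10% of its value. The highest array stood 361-fold above the lowest. Of the 21649 genes and transcripts, 1 had a wider range over the 4 arrays than Ada. This was Naip6, an inflammasome sensor gene with near-identical relatives, named after its values were seen, which was well above background on 3 arrays.

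**Figure D1:**
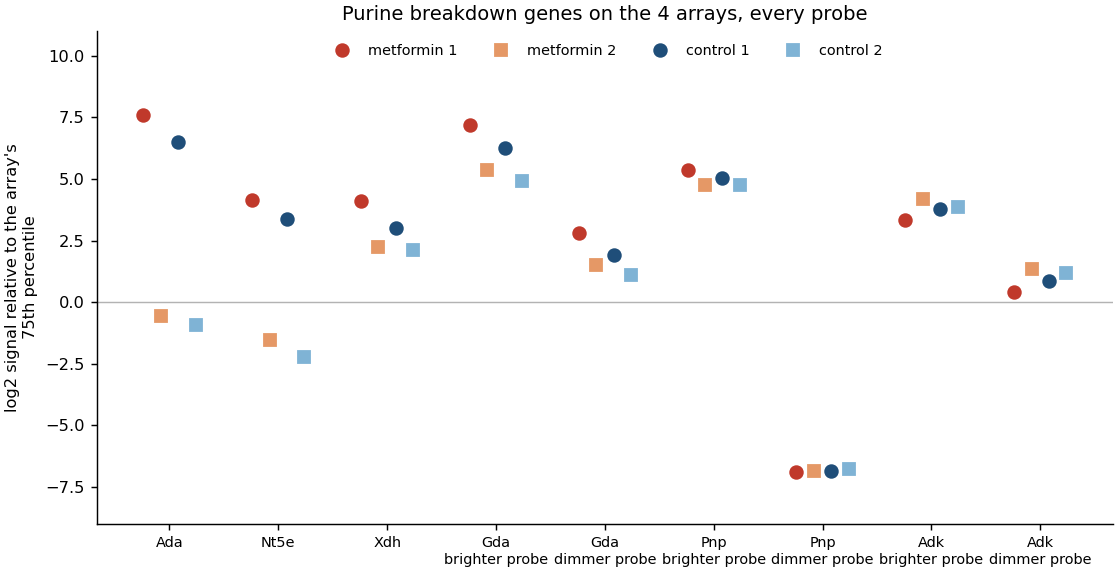
Log2 of signal over the 75th percentile of each array (vertical axis) for each of the 9 probes (horizontal axis), with 1 point per array. Ada and Nt5e show metformin 1 and control 1 far above 0 and metformin 2 and control 2 below 0. The other genes span at most 2.28 log2 units, and the dimmer Pnp probe lies near background.

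Nt5e, the enzyme that makes extracellular adenosine, followed Ada closely. It read 4.15 in metformin 1 and -1.55 in metformin 2, against 3.38 in control 1 and -2.21 in control 2. Again both samples numbered 1 were high and both numbered 2 were low, an 81.9-fold span between the highest and the lowest array. Its range over the 4 arrays ranked 30 among 21649, and both genes were well above background on all 4 arrays. Across the 4 arrays Nt5e was the nearest of 14554 symbols to Ada, with a root mean square difference of 1.08 between the values centred on each gene's mean (r = 0.999, a description over 4 arrays).

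The promoters of Ada, Nt5e and Slc28a2 are shown because these genes moved together over the arrays, although they lie apart in the genome. Each sequence is the 250 bases before the transcription start on the gene's strand, from RefSeq on GRCm38.p6. They lie at chr2:163750240-163750489 on the minus strand (Ada), chr9:88327359-88327608 on the plus strand (Nt5e) and chr2:122426185-122426434 on the plus strand (Slc28a2). Capitals mark matches, on either strand, to the motifs named after the sequences.
Ada: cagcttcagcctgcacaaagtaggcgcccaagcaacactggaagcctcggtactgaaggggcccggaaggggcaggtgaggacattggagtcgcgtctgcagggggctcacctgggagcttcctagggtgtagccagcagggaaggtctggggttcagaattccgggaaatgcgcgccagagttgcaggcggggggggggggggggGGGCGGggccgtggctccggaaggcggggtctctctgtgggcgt
Nt5e: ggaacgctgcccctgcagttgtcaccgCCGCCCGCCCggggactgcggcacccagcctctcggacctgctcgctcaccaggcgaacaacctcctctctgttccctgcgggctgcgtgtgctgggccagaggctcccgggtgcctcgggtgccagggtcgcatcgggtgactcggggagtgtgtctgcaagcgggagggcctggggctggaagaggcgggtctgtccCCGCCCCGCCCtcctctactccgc
Slc28a2: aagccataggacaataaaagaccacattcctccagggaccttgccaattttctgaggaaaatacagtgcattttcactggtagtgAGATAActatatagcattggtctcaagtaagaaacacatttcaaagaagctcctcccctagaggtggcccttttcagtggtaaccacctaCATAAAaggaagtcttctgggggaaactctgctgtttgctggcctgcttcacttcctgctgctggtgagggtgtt
Searched on both strands were the GC box GGGCGG, the TATA box TATAAA, the GATA motif AGATAA, the CDX motif TTTATG and the hypoxia response core ACGTG. The GC box had 1 match in Ada and 4 in Nt5e, in 2 overlapping pairs, and 32.7% of the 32851 promoters in the table hold at least 1. Slc28a2 had no GC box but 1 GATA match, found in 9.99% of promoters, and 1 CDX match, found in 10.8%. None of the 3 windows held the TATA box or the hypoxia core, which 12.4% and 16.6% of promoters hold. The GC content was 67.2% in Ada, 72.0% in Nt5e and 45.2% in Slc28a2, against a median of 52.4% over all promoters. The promoters thus differed in base composition, and none of the motifs searched was present in all 3.

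The enzymes further down the pathway varied far less than Ada and Nt5e, but Gda and Xdh had wider ranges than 93.3% and 90.4% of all genes. Gda, the guanine deaminase, had 2 probes. The brighter probe read 7.20 in metformin 1 and 5.37 in metformin 2, against 6.25 in control 1 and 4.92 in control 2. The dimmer probe read 2.81 and 1.51 in metformin 1 and metformin 2, against 1.91 and 1.11 in control 1 and control 2. Both probes ordered the arrays as Ada did, with metformin 1 highest, then control 1, metformin 2 and control 2. Xdh, which makes urate, read 4.10 in metformin 1 and 2.22 in metformin 2, against 3.0 in control 1 and 2.12 in control 2. Metformin 1 stood out in Xdh, and the other 3 arrays lay within 1 log2 unit. The highest array was 4.84-fold above the lowest for the brighter Gda probe and 3.96-fold for Xdh.

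Pnp and Adk stayed close to level. Pnp, the nucleoside phosphorylase, read 5.37 and 4.76 in metformin 1 and metformin 2, against 5.06 and 4.77 in control 1 and control 2, a span of 1.53-fold. Its dimmer probe read between -6.89 and -6.76 and was well above background only in metformin 2 and control 2, so it was left out of the comparison. The neighbouring gene Pnp2 is a close copy whose transcripts either probe may also detect. It read 4.65 and 3.71 in metformin 1 and metformin 2, against 4.37 and 3.55 in control 1 and control 2.

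Adk, the kinase that competes with Ada for adenosine, ran the other way. Its brighter probe read 3.33 in metformin 1 and 4.18 in metformin 2, against 3.78 in control 1 and 3.85 in control 2. The other probe, designed on another Adk transcript, read 0.41 and 1.36 in metformin 1 and metformin 2, against 0.87 and 1.18 in control 1 and control 2. On both probes metformin 1, the array with the most Ada, had the least Adk, and the whole span was 1.81-fold and 1.92-fold. Over the 4 arrays Adk correlated with Ada at r = -0.792, whereas Pnp, Xdh, Gda and Nt5e correlated with it at 0.938, 0.915, 0.944 and 0.999. These values describe 4 points that share their samples and carry no p.

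**Figure D2:**
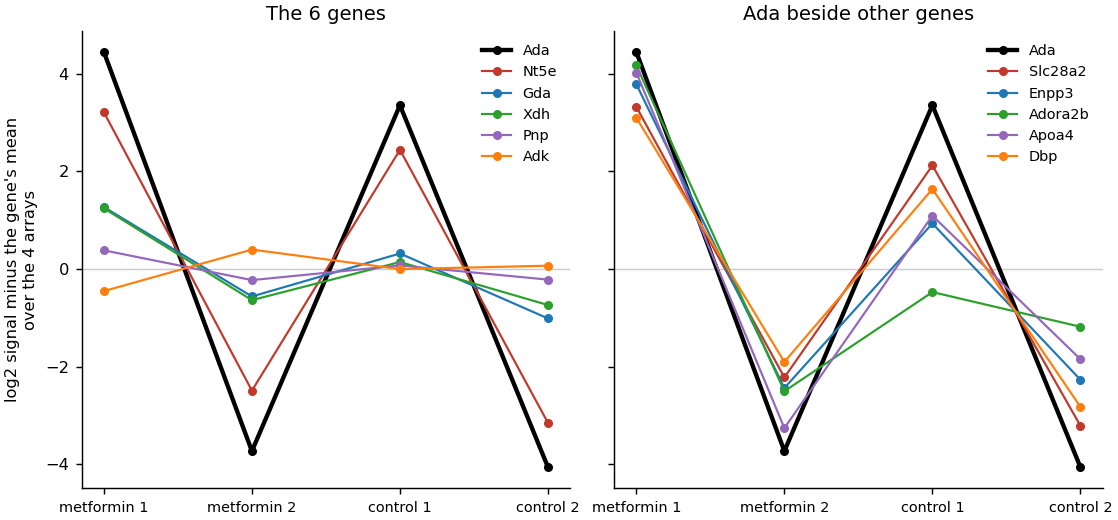
Log2 signal of each gene minus its mean over the 4 arrays (vertical axis) on each array (horizontal axis). The left panel shows the 6 genes and the right panel shows Ada beside Slc28a2, Enpp3, Adora2b, Apoa4 and Dbp. Ada and Nt5e alternate between high in the samples numbered 1 and low in those numbered 2, Adk is lowest in metformin 1, and Adora2b is high in metformin 1 alone.

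Between the groups, 5 of the 6 genes had a higher mean in the metformin samples and Adk a lower one, with differences under the larger SD within groups. Over all genes 57.6% had a higher and 42.4% a lower mean with metformin. Ada averaged 3.51 ± 5.78 in metformin samples and 2.79 ± 5.24 in controls (SD, n = 2 each), a difference of 0.71 (SE 3.72). Nt5e averaged 1.30 ± 4.03 in metformin samples and 0.59 ± 3.95 in controls, a difference of 0.71 (SE 2.70). For both genes the mean difference was far below the SD within either group. Without metformin 1 the difference was -3.37 for Ada and -2.14 for Nt5e. Without control 2 it was -2.99 and -2.08. Leaving out metformin 2 gave 4.79 and 3.56, and leaving out control 1 gave 4.41 and 3.51. The sign of the metformin difference therefore turned on which single sample was left out. Each group held 1 high and 1 low sample, so leaving any out unbalanced them. Between same-numbered samples, metformin minus control was 1.09 and 0.33 for Ada and 0.77 and 0.66 for Nt5e. With the sample number fitted as a block the SE was 0.27 for Ada and 0.15 for Nt5e, but the labels give no pairing by number.

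Gda averaged 6.29 ± 1.29 in metformin samples and 5.59 ± 0.94 in controls, a difference of 0.70 (SE 0.81). Xdh averaged 3.16 ± 1.34 in metformin samples and 2.56 ± 0.62 in controls, a difference of 0.60 (SE 0.75). The differences for Pnp and Adk were 0.15 (SE 0.36) and -0.06 (SE 0.40). The median difference over all genes was 0.06, and it was 0.19 when arrays were centred on their medians, at which Adk turned positive (0.07). Without metformin 1 the differences of Gda, Xdh and Pnp were negative, between -0.34 and -0.15, and that of Adk was 0.37. Fewer cells of a type and less RNA per cell cannot be told apart in such tissue pieces.

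Against all genes, no member stood clear between the groups. Both metformin arrays lay above both controls for 0 of the 6 genes and below them for 0, whereas 12.3% of all 21649 genes and transcripts lay above without overlap and 8.57% below. With arrays centred on their medians the counts over all genes were 5720 above and 1112 below, in place of 2672 and 1855. In limma's fit with Benjamini-Hochberg adjustment 0 genes were higher (0%) and 0 lower (0%), the smallest adjusted p being 1 after rounding, and 347 genes had an unadjusted p under 0.05. Of these, 75 were higher (0.346%) and 272 lower (1.26%).

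**Figure D3:**
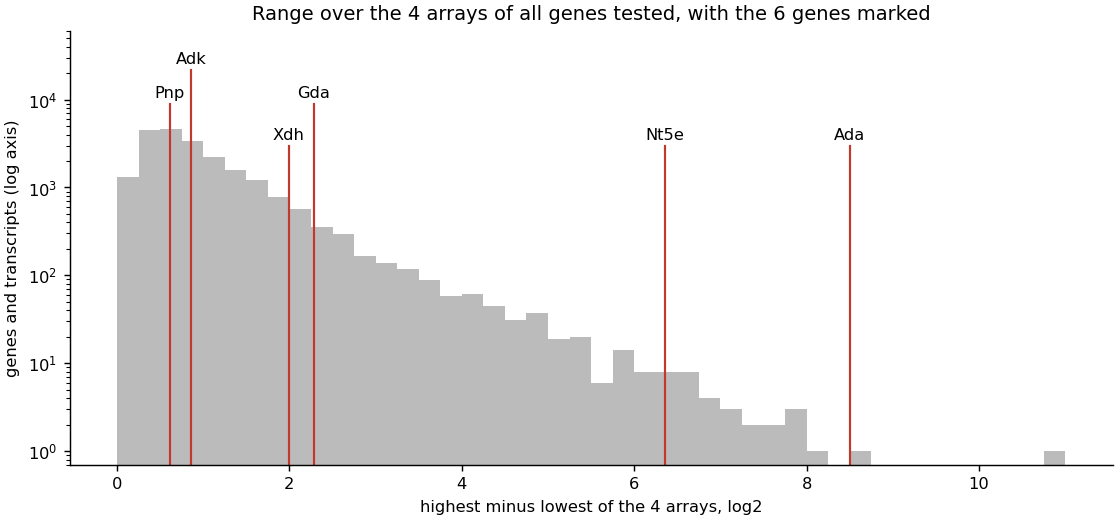
Histogram of the range over the 4 arrays (highest minus lowest log2 signal, horizontal axis) of the 21649 genes and transcripts tested, with their number on a log axis. Red lines mark the 6 genes: Ada at 8.50 and Nt5e at 6.36 lie far out in the right tail, and Pnp at 0.61 and Adk at 0.86 lie near the median of 0.77.

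The genes around these enzymes were read from 7 lists of the purine pathway with 75 genes, of which 70 were measured. None of the 70 passed the adjusted threshold in either direction in limma's fit (0 higher and 0 lower, with 1 of 70 at an unadjusted p under 0.05). The groups did not overlap for 14 of them, 5 higher and 9 lower. These were 7.14% and 12.9% of the 70, beside 12.3% and 8.57% of all genes. With only genes well above background on all 4 arrays, 65 list genes were left, 5 higher and 8 lower without overlap. Over all 20210 genes and transcripts left by that filter, 2237 were higher and 1693 lower without overlap. Of the 65 list genes, 0 had an unadjusted p under 0.05 in limma's fit, beside 240 of the 20210. The median difference of the 70 was 0.05, beside 0.06 over all genes. At least 2-fold differences without overlap numbered 0 higher and 2 lower, against 0.628% and 2.32% of all genes. Over all genes these were 136 higher and 502 lower, and 212 and 412 with median centring. Without metformin 1, 31 of the 70 differences changed sign. Sign changes were not counted over all genes, so this number is not a trait of the lists.

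Nucleoside transport held the gene nearest to Nt5e. Slc28a2, a sodium-coupled carrier of purine nucleosides, read 5.52 in metformin 1 and -0.02 in metformin 2, against 4.32 in control 1 and -1.01 in control 2. It was high in both samples numbered 1, its groups overlapped, and its root mean square difference from Nt5e was 0.22. Slc28a2b, a related gene whose transcripts may share its signal, read 2.71 and -2.60 in metformin 1 and metformin 2, against 1.71 and -2.57 in control 1 and control 2. The equilibrative transporter Slc29a1 read -0.62 and 0.27 in metformin 1 and metformin 2, against 0.60 and 0.80 in control 1 and control 2. Both of its metformin values were below both controls, a difference of -0.87 (SE 0.41, limma adjusted p = 1). Slc29a4 and Slc29a3 differed by -0.64 (SE 0.65) and 0.26 (SE 0.31), with overlap. Without metformin 1 the differences were -0.43 for Slc29a1 and 0.23 for Slc29a4, and that of Slc28a2 was -1.68 (1.09 with it).

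Among enzymes that feed Nt5e, the pyrophosphatase Enpp3, which cleaves extracellular ATP to AMP and was picked out after its values were seen, varied most. It read 5.03 in metformin 1 and -1.19 in metformin 2, against 2.18 in control 1 and -1.02 in control 2, a 74.3-fold span. It too was high in both samples numbered 1. Entpd1 (CD39), the ectonucleotidase of immune and endothelial cells, read -5.64 and -5.54 in metformin 1 and metformin 2, against -4.50 and -5.04 in control 1 and control 2. Its groups did not overlap, with a difference of -0.82 (SE 0.33, limma adjusted p = 1). Enpp1 differed by 0.32 (SE 0.31). Without metformin 1 the differences were -0.77 for Entpd1, 0.17 for Enpp1 and -1.76 for Enpp3 (1.34 with it). The alkaline phosphatase gene Akp3 read -5.61 and -6.77 in metformin 1 and metformin 2, and was not well above background in control 1 and control 2 (-6.47 and -7.54). It passed the filter through the metformin arrays alone, so its difference is given as a description. Its group mean was at least 1.65-fold higher there (limma adjusted p = 1), but the measured values overlapped, with control 1 above metformin 2.

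Of the adenosine receptors, Adora2b, the receptor of low adenosine affinity in epithelium, had the widest range of the 4. It read 1.99 in metformin 1 and -4.68 in metformin 2, against -2.65 in control 1 and -3.36 in control 2. The high value was in metformin 1 alone, so Adora2b did not share the pattern of Ada. Adora1 was lower on both metformin arrays, at -4.48 and -3.47, against -3.37 and -2.89 in control 1 and control 2, a difference of -0.85 (SE 0.47, limma adjusted p = 1). Adora3 differed by 0.49 (SE 0.43). Without metformin 1 the difference was -0.34 for Adora1 and -1.68 for Adora2b (1.66 with it). Ada, Adora2b, Slc28a2, Nt5e and Enpp3 were the 5 genes, out of 76 members and list genes, whose ranges were among the 50 widest of the 21649.

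Salvage enzymes, which return bases and nucleosides to nucleotides, were mostly level. Hprt, which salvages hypoxanthine and guanine, read 3.84 and 4.04 in metformin 1 and metformin 2, against 3.92 and 3.93 in control 1 and control 2. Aprt, its counterpart for adenine, differed by 0.25 (SE 0.29), and by 0.13 without metformin 1. Dck, a deoxynucleoside kinase, differed by -0.46 (SE 0.32), and by -0.65 without metformin 1. The adenylate kinase Ak1 read -3.56 and -3.78 in metformin 1 and metformin 2, against -0.62 and -3.56 in control 1 and control 2, so that its difference of -1.58 (SE 1.03), or -1.69 without metformin 1, lay in control 1. Smooth muscle markers, 8 of 8 measured, also summed highest there, at 5.40 and 7.88 in metformin 1 and metformin 2, against 203 and 8.82 in control 1 and control 2, and their part in the Ak1 values was not tested. Gmpr, a GMP reductase, was not well above background in metformin 1 and read -5.71 in metformin 2, against -4.48 and -6.21 in control 1 and control 2.

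The intracellular nucleotidases Nt5c3b, Nt5c2 and Nt5c1a differed by -0.68 (SE 0.49), 0.36 (SE 0.48) and 0.17 (SE 0.39). Of the 5 measured, 0 were free of overlap, beside 12.3% higher and 8.57% lower of all genes. Without metformin 1 the difference of Nt5c2 was -0.23. Around urate, Uox, which oxidises it further in mice, read -4.52 and -4.04 in metformin 1 and metformin 2, against -3.92 and -3.93 in control 1 and control 2. Its difference of -0.35 (SE 0.32) was -0.11 without metformin 1. The urate transporter Slc2a9 differed by 0.40 (SE 0.44). Aox1, a molybdenum oxidase related to Xdh, was not well above background on either metformin array and was at least 1.84-fold lower there (limma adjusted p = 1). It passed the filter through the control arrays alone, so its difference is given as a description. Aox1 was the 1 list gene counted above at an unadjusted p under 0.05. It was also among those counted as lower without overlap and as at least 2-fold lower. Of all genes, 8.57% were lower without overlap, which is the share to set beside the marker counts that follow. Fibroblast markers, 8 of 8 measured and 8 lower without overlap, summed to 4.21 and 1.97 in metformin 1 and metformin 2, against 18.6 and 7.60 in control 1 and control 2. Of 6 measured adipocyte markers (Lep was not), 5 were lower without overlap, with differences of -3.62 to -2.69. The list summed to 22.9 and 6.93 in metformin 1 and metformin 2, against 12.9 and 12.2 in control 1 and control 2. Most of that sum was Cidec, whose groups overlapped. Cidec read 4.46 and 2.72 in metformin 1 and metformin 2, against 3.29 and 2.76 in control 1 and control 2. Endothelial markers, 7 of 7 measured and 4 lower without overlap, summed to 5.24 and 4.09 in metformin 1 and metformin 2, against 5.50 and 4.07 in control 1 and control 2. Most of this sum was Kdr, which overlapped and differed by 0.14, whereas the 4 differed by -1.71 to -1.07. The part of these lists in the Aox1 and Entpd1 values was not tested.

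Of the 15 enzymes of new purine synthesis, 11 had a lower mean in metformin samples, beside 42.4% of all genes. The median difference of the 15 was -0.43, but 0 passed the test. In each direction 1 was free of overlap, beside 12.3% higher and 8.57% lower of all genes. Paics differed by -0.43 (SE 0.28) without overlap. Ppat, the committed step of the pathway, read -3.99 in metformin 1 and -2.19 in metformin 2, against -2.88 in control 1 and -1.74 in control 2. Impdh2, which opens the branch to guanine nucleotides, read 2.06 and 3.29 in metformin 1 and metformin 2, against 3.0 and 3.70 in control 1 and control 2. Both genes were low in the samples in which Ada was high and lowest in metformin 1. Adss differed by 0.36 (SE 0.30). Without metformin 1 the differences were -0.37 for Paics, 0.23 for Adss and 0.12 for Ppat (-0.78 with it). Adsl, Atic, Gart, Gmps, Impdh1, Pfas, Prps2 and Prpsap2 also turned from lower to higher without it, at 0.10 to 0.35. Impdh2 stayed lower at -0.07, and Prpsap1 turned from 0.25 to -0.02. Cell cycle markers, 7 of 7 measured, had summed levels of 8.92 and 16.2 in metformin 1 and metformin 2, against 16.2 and 22.8 in control 1 and control 2, and their part in the synthesis genes was not tested.

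**Figure D4:**
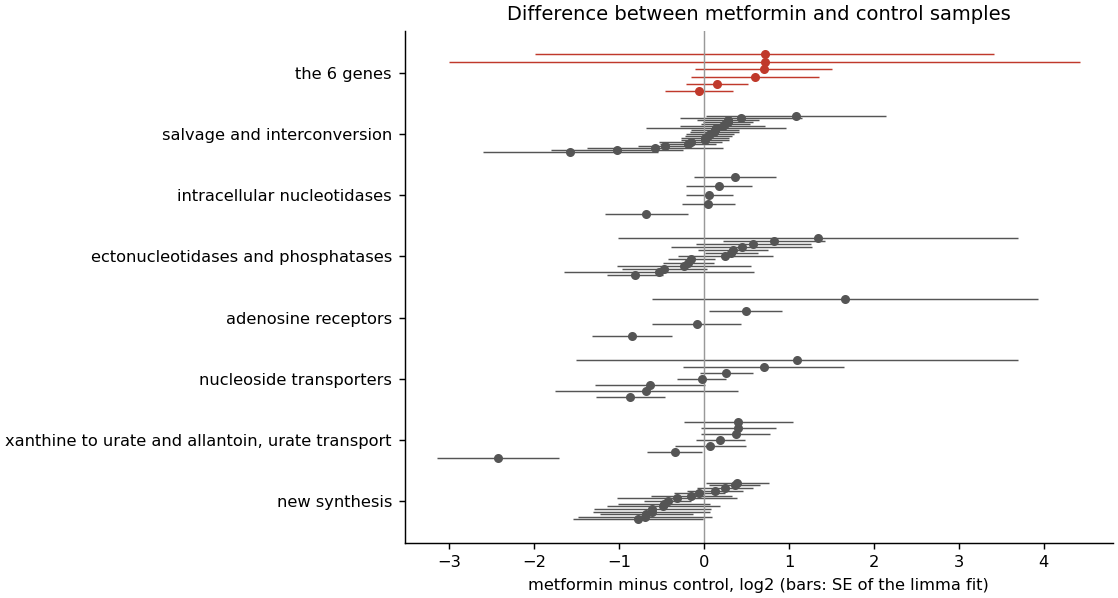
Metformin minus control difference on the log2 scale (horizontal axis) with the SE of the limma fit as bars, for the 6 genes (red) and for the measured members of the 7 purine lists (grey). The bars of Ada and Nt5e reach far to both sides of 0, and no gene passed the adjusted threshold.

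Other genes that tracked Ada are known from the villus and from the clock. After Nt5e, Slc28a2 and Slc28a2b, the nearest to Ada were Dbp, a transcription factor driven by the circadian clock, and Apoa4, an apolipoprotein of absorptive enterocytes. Dbp read 4.52 and -0.48 in metformin 1 and metformin 2, against 3.06 and -1.40 in control 1 and control 2. Apoa4 read 6.86 and -0.42 in metformin 1 and metformin 2, against 3.93 and 0.99 in control 1 and control 2. The genes nearest to the other 4 members lay at smaller root mean square differences. This measure grows with the range of a gene, so the smaller values do not mean a closer likeness than that of Nt5e to Ada. They were Rusf1, Tor1b and Sohlh2 for Pnp (0.01 to 0.02), Cyp2d11, Fbln1 and Ltb4r2 for Xdh (0.04 to 0.05), Smad6, Slc5a9 and Cyp3a13 for Gda (0.07 to 0.08) and Rnf145, Gpat2 and Golm1 for Adk (0.02 to 0.04). The order of arrays seen in Ada was found in 3 of the other 5 members (Nt5e, Gda and Xdh), in 15 of the 70 list genes and in 19.6% of all genes.

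Marker levels that moved with Ada and Nt5e are given beside them without a test of their part. Of 5 villus tip markers chosen after the values were seen (Apoa4, Creb3l3, Klf4, Egfr and Junb), all were well above background on all 4 arrays, and they summed to 321 and 88.6 in metformin 1 and metformin 2, against 136 and 74.6 in control 1 and control 2. Apoa4 and Creb3l3 are also on the proximal list, and Apoa4 was named above as near to Ada, so this sum is separate from neither. The villus tip list was not of 1 kind. Apoa4, Creb3l3 and Klf4 were higher in the sample numbered 1 in both groups, and Egfr and Junb were higher in the sample numbered 2. Creb3l3 read 7.31 and 5.99 in metformin 1 and metformin 2, against 6.47 and 5.72 in control 1 and control 2, whereas Egfr read 1.46 and 1.89 in metformin 1 and metformin 2, against 0.68 and 1.26 in control 1 and control 2. General villus enterocyte markers, 10 of 10 measured, summed to 1820 and 1220 in metformin 1 and metformin 2, against 1510 and 906 in control 1 and control 2. T and natural killer cell markers, 9 of 9 measured, summed to 85.1 and 21.5 in metformin 1 and metformin 2, against 36.8 and 17.7 in control 1 and control 2. The largest part of that sum was Cd4, at 5.74 and 3.35 in metformin 1 and metformin 2, against 4.74 and 3.21 in control 1 and control 2. Cd3e read only 0.75 and -0.41 in metformin 1 and metformin 2, against -0.10 and -0.56 in control 1 and control 2. The sums of these lists put the 4 arrays in the same order as Ada, over a smaller span than its 361-fold, and so did 2 of the 5 villus tip, 9 of the 10 villus enterocyte and 6 of the 9 T and natural killer cell markers taken singly. Hypoxia response genes, 9 of 9 measured, had higher sums in both samples numbered 2, at 40.7 and 106 in metformin 1 and metformin 2, against 33.4 and 82.8 in control 1 and control 2. Of the 9, 7 were higher in the sample numbered 2 in both groups, and Egln3 and Bnip3 were lower there.

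**Figure D5:**
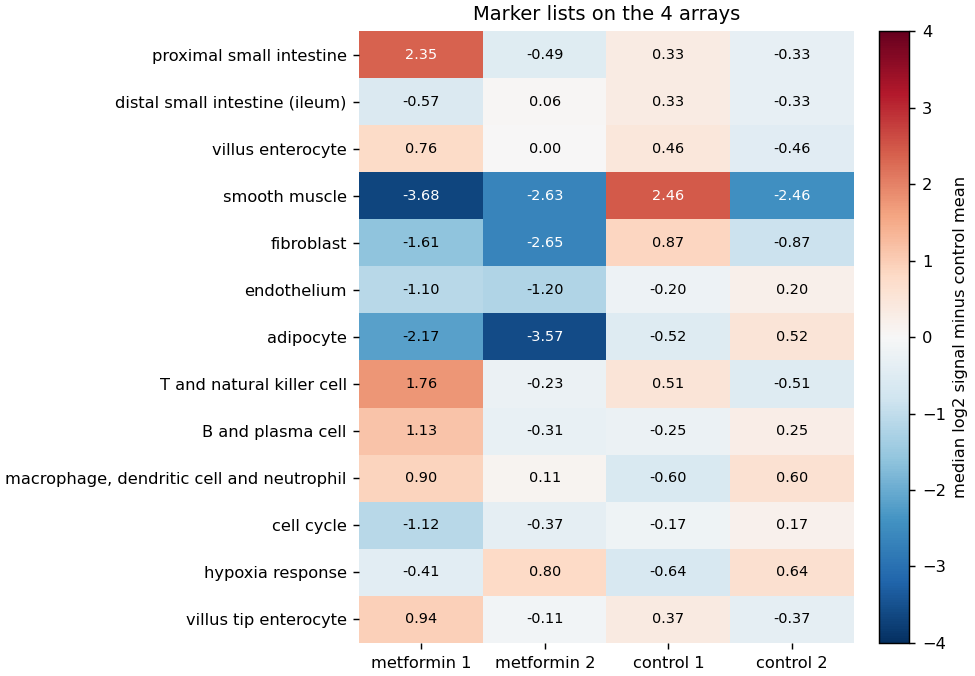
Median over each marker list of the log2 signal of its genes, each minus its mean in the controls (colour and printed value), with lists in rows and the 4 arrays in columns. The proximal intestine list is highest in metformin 1 at 2.35, the smooth muscle list is highest in control 1 at 2.46, and the hypoxia list is above 0 in metformin 2 and control 2 and below 0 in the other arrays.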

How the data were processed

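The authors deposited 1 scanner file per array with spot intensity values on a linear scale, produced by Agilent Feature Extraction 10.7.3.1 and background-subtracted within each array, per the file headers, with no scaling between arrays. They also deposited a series table, whose intensity was equal to the raw median signal within 1e-06 for all 39030 probes with 1 spot and which served as an alternative. The log2 of the processed signal was averaged over unflagged spots of a probe, and each array's 75th percentile over probes was subtracted. Accessions were matched without versions to RefSeq genes of GRCm38.p6 (27508 probes with a symbol). Probes well above background on both arrays of a group were kept. The brightest per gene was tested in limma 3.58.1 (lmFit, eBayes, R 4.3.3, two-sided, Benjamini-Hochberg, threshold 0.05). The fit was first checked on simulated data with far less spread within groups than Ada or Nt5e had. That check does not cover genes of such spread. With 2 arrays per group, their number limits the precision. The members, lists, rule for named genes and alternatives were chosen with earlier results of these data known. The rule took the 6 genes, the 3 list members of smallest p in each list, landmarks of the pathway and the nearest patterns. For a fold written as "at least", each dim array was given its own probe value or, if higher, the lowest value of any probe well above background there. The scanner files used here held no mean signal, so the normexp alternative used the median signal.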

Additional observations from a re-analysis of the deposited data

How the results depend on the processing

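The counts of adjusted calls over all genes and over the purine lists stayed at 0 in every setting run with limma, the replicate block included. With the sample number as a replicate block 1566 of all 21649 genes had an unadjusted p under 0.05 in limma's fit, in place of 347. Of the 70 purine list genes 9 did, in place of 1, and the value of adjusted calls was 0. The numbers mark no shared animal or batch in the labels, and deviations of same-numbered samples correlated at r = 0.563 over genes. The 6 differences moved by less than 1 pooled SD under the 9 alternatives that kept all samples, the block included. This is a wide measure, as that SD was 5.51 for Ada and 3.99 for Nt5e. The block and the filter settings could not move these differences, since the tested probes and the group means stayed the same. Averaging probes could not move those of Ada, Nt5e and Xdh, which had a single probe. Ada lay between 0.64 and 0.84, Nt5e between 0.65 and 0.84 and Gda between 0.60 and 0.83. Xdh lay between 0.50 and 0.73, Pnp between 0.03 and 0.28 and Adk between -0.19 and 0.07. Leaving out 1 sample gave -3.37 to 4.79 for Ada, -2.14 to 3.56 for Nt5e, -0.22 to 1.61 for Gda, -0.34 to 1.55 for Xdh, -0.15 to 0.46 for Pnp and -0.49 to 0.37 for Adk, the lone sample of a group being assumed to vary like the other group. Genes at least 2-fold changed without overlap numbered 13 higher and 116 lower with normexp, 317 and 817 without a filter on dim probes, and 22 and 198 in the deposited table, in place of 136 and 502. There were 212 higher with median centring and 42 with all 4 arrays above background. Genes without overlap numbered 1142 lower with normexp, and 5720 higher and 1112 lower with median centring. Of the 70 purine list genes, 5 were lower without overlap with normexp and 15 higher with median centring, in place of 9 and 5. These stand beside the 1142 and 5720 of all 21649 genes. Leaving out 1 sample gave 350 to 1537 genes 2-fold higher and 855 to 1779 lower, 5329 to 9239 higher and 4764 to 6856 lower without overlap, and 12 to 29 higher and 13 to 30 lower among the purine lists, since 1 array against 2 overlaps less often by construction. The most 2-fold changes were found without metformin 2. Unadjusted p under 0.05 numbered 184 without control 1 and 1357 without metformin 2, with 0 adjusted calls in both. The cause of the other shifts was not tested. Signals near background limit Akp3, Aox1, Ampd1, Gmpr, Nt5c1a and the dimmer Pnp probe.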
